A study of Arabidopsis thaliana with 30 samples.

Results

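The genes described here encode the proteins of the cytosolic ribosome of Arabidopsis thaliana: 44 nuclear loci, of which 25 code for proteins of the large subunit and 19 for proteins of the small subunit. They were taken by their locus codes from the 32679 named entries of the count tables. Most cytosolic ribosomal proteins have several gene copies in this species, and a further 171 loci, described here as the other copies, code for proteins of the same ribosome. All 44 genes passed the filter on low counts, as did 19566 of all entries. A gene is called by its protein and the letter of its copy, so that RPL23aA and RPL23aB are the copies A and B of the large-subunit protein L23a. The names are those in general use for the loci and were not read from the count tables.

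RNA was sequenced from shoots in 30 libraries, 3 for each of 10 groups. There were 3 lines with the genotype EAR, named EAR-13-068, EAR-15-025 and EAR-15-053, and 2 with the genotype VP16, named VP16-02-003 and VP16-05-014. The EAR pool 13 and EAR pool 15 backgrounds, the VP16 pool 2 and VP16 pool 5 backgrounds and the accession Col-0 made up the other groups. The labels give the pool backgrounds the genotype of their pool, EAR or VP16. In genome interrogation, plants express artificial zinc-finger transcription factors. EAR is a plant repression motif, VP16 is an activation domain of a herpesvirus, and Col-0 is the usual laboratory accession. Each line was set against the background of the pool whose number its name carries, and each pool background against Col-0. The promoter driving the factors, their target sequences, the age of the plants and the composition of the pools are not given in the sources used here. Nor do the labels say that replicates A, B and C came from separate plants, so the p-values cover no more than the spread among the samples of a group, and that spread may be technical.

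A cytosolic ribosome joins a large subunit, which forms peptide bonds, with a small subunit, which reads the messenger RNA. Its proteins are needed in near equal numbers, and their genes are among the most strongly transcribed of growing plant tissue, where the TOR kinase links ribosome production to nutrient and sugar status. Arabidopsis plants that lack a single ribosomal protein copy often have narrow, pointed first leaves, and the loss of both copies of a protein is usually lethal.

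Values are given in CPM, the reads of a gene per 1e+06 reads on genes, for the genes of the set with TMM scaling. Depth ranged from 10076308 to 40780331 reads on genes. The 6 shoot markers were at 5763 CPM or more in every library. Of the 8 root and flower markers, LRX1 and EXPA7 had no read in any of the 30 libraries and the highest value of any other was 0.94 CPM. The tables hold an entry named VP16, which had 6.46 to 26.9 CPM in libraries of the genotype VP16, 0.347 to 9.44 CPM in those of the genotype EAR and 0 to 0.104 CPM in Col-0. Earlier work on these data set 4 libraries apart from the rest of their groups: replicate C of VP16-05-014, of EAR-13-068 and of EAR-15-053, and replicate A of EAR-15-025. In each of these 4 the median ribosomal protein gene was also higher than in the other libraries of the group, as given below. The counts of these lines are given with and without them, and so are the median fold changes of the EAR lines. For VP16-05-014 the median fold change is given only with replicate C.

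Together the 44 genes took 1.37 to 1.77% of the reads of a library. Their levels per length, in RPKM, which is CPM divided by the length of the annotated exons in kilobases, lay close together with 1 exception. RPS8A (AT5G20290), a small-subunit protein gene, had the highest mean over the 10 groups at 625 RPKM. It was followed by RPL14B (AT4G27090) at 553 RPKM and RPL19A (AT1G02780) at 552 RPKM, both of the large subunit. At the lower end stood RPS15aA (AT1G07770) at 148.5 RPKM, RPS5B (AT2G37270) at 146 RPKM and RPL23aB (AT3G55280) at 130 RPKM. RPS9C (AT5G39850), a minor copy of the small-subunit protein S9, was far below all others at 6.92 RPKM. Its lowest group mean was 4.78 RPKM in VP16-02-003 and its highest 8.65 RPKM in the VP16 pool 2 background.

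Across the 10 groups the levels moved little. The ratio of the highest to the lowest group mean was 1.1 for RPS2C (AT2G41840) and RPL36aB (AT4G14320), and it passed 1.3 only for RPS3A at 1.33, RPL23aB at 1.55 and RPS9C at 1.81. Neighbours in the order of levels overlapped in their group means except at 3 steps, from RPL19A to RPL10A (AT1G14320), from RPL36aB to RPS15aA and from RPL23aB to RPS9C. Exon length was the union over all annotated transcripts, so that a gene with a long annotated transcript has a lower value. The union is 1592 bases for RPL23aA and 907 for RPL23aB.

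**Figure D1:**
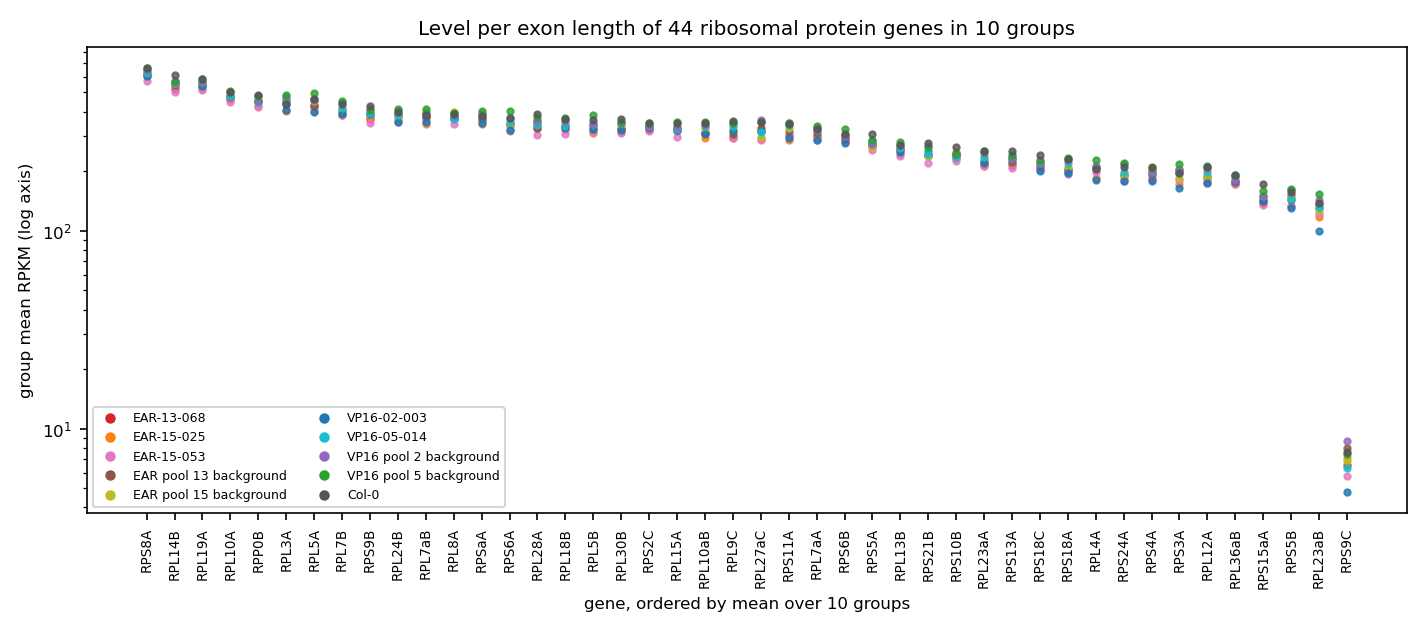
Mean RPKM per group (log axis) of the 44 ribosomal protein genes, ordered by the mean over the 10 groups; each point is the mean of 3 libraries of 1 group. The genes form a gentle slope between RPS8A at 625 RPKM and RPL23aB at 130 RPKM, and RPS9C stands apart at 6.92 RPKM.

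The genes varied together from library to library. Relative to each gene's own mean log2 CPM over all 30 libraries, the median gene lay between -0.18 in EAR-15-053 B and 0.21 in Col-0 B, the shallowest library. In Col-0 A and in VP16 pool 2 background C all 44 genes were above their own mean. In EAR-15-025 C, EAR-15-053 A and EAR-15-053 B none of them was.

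Libraries of 1 group could differ widely. The median gene was at -0.10, 0.0096 and 0.16 in VP16-05-014 A, B and C. In EAR-15-025 it was at 0.0013, -0.069 and -0.17, in EAR-15-053 at -0.13, -0.18 and -0.023, and in EAR-13-068 at -0.067, -0.081 and 0.057. The 4 libraries named above as apart held the highest value of their group in every case. VP16-02-003 was the line with the least spread, at -0.072, -0.072 and -0.042. Among the pool backgrounds the values were -0.024, 0.032 and 0.20 in VP16 pool 2, 0.14, 0.11 and 0.12 in VP16 pool 5, -0.035, 0.015 and -0.045 in EAR pool 13 and 0.034, 0.023 and 0.0011 in EAR pool 15. Col-0 was at 0.063, 0.21 and 0.0057. In the plot by library the boxes shift as a whole, with few genes outside the shift of their library.

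**Figure D2:**
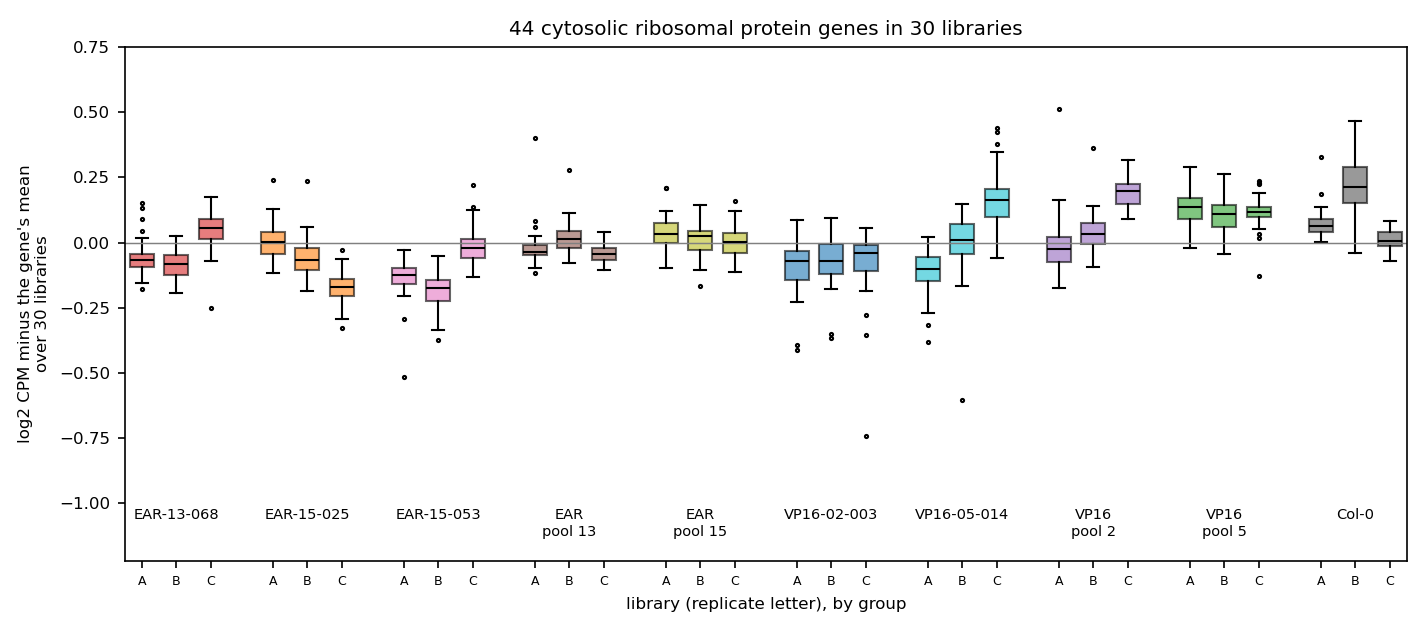
Log2 CPM of the 44 genes minus each gene's mean over 30 libraries (y axis), with 1 box per library, grouped and coloured by group; the line in a box is the median gene, the box spans the interquartile range, the whiskers reach the farthest gene within 1.5 box lengths, and dots are genes beyond them. The medians run between -0.18 and 0.21, and replicates such as those of VP16-05-014, at -0.10, 0.0096 and 0.16, lie apart.

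VP16-02-003 was the only line in which genes of the set passed the test against the pool background. Of the 44 genes 10 were lower and 0 higher, and 34 were not called. The 10 lower genes were RPS9C, RPS3A, RPS5B, RPS24A and RPS11A of the small subunit and RPL23aB, RPL12A, RPL4A, RPL5A and RPL23aA of the large subunit. The called genes were 22.7% of the set, while over all 19566 genes tested 13.8% were called lower and 15.3% higher by the same test. The share called lower was larger among strongly expressed genes. Of the genes that do not encode a cytosolic ribosomal protein, 12.7% were called lower at mean levels up to about 97.4 CPM. The share was 24.4% at about 101 to 177 CPM, 26.4% at about 178 to 291 CPM and 26.8% from about 294 CPM upward. This last class, which holds 28 of the 44, had no upper limit, while the cytosolic ribosomal protein genes reached 769 CPM. The 22.7% of the set is taken over all its levels, and its share within each class was not counted, so it cannot be set against these class shares. The share of the set depended on the setting. It was 43.2% with TMM factors computed without cytosolic ribosomal protein genes, against 16.1% of all genes, and 43.2% with organelle genes left out, against 15.6%. It was 34.1% without the 4 libraries that stood apart, against 18.6% of all genes, and 34.1% in DESeq2, against 13.7%. With scaling by library size alone it was 13.6%, against 10.3%, and with the compared groups fitted alone 13.6%, against 14.8%. The median log2 fold change of the 44 was -0.13, with 42 negative, against 0.0094 for all genes. In 26 of the 44 every VP16-02-003 library was below every library of the background, which held for 21.9% of all genes tested. In whole shoots, fewer cells that use a gene and less of its RNA per cell cannot be told apart.

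RPS9C had the largest change. It lies at AT5G39850 (chr5:15949910-15951475, plus strand) in the TAIR10.1 assembly and encodes S9, which forms part of the channel through which messenger RNA enters the small subunit. It had 5.27, 5.46 and 4.201 CPM in VP16-02-003 A, B and C, against 10.03, 9.03 and 7.97 CPM in the pool background. All 3 line libraries were below all 3 of the background. The fit with edgeR's quasi-likelihood test and Benjamini-Hochberg adjustment gave log2 fold change -0.86, SE 0.22, adjusted p = 0.00543. These values rest on 55 to 77 reads in each library of the line, the fewest for any gene of the set.

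RPL23aB followed, at AT3G55280 (chr3:20500234-20501738, plus strand). L23a sits at the exit of the tunnel through which the new protein leaves the ribosome. The gene was at 88.6, 91.3 and 91.0 CPM in VP16-02-003, against 130.2, 124 and 134 CPM in the VP16 pool 2 background (log2 fold change -0.52, SE 0.13, adjusted p = 0.00501, edgeR). The 3 values of the line lay close together and below every other library of the series.

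Of the small-subunit genes, RPS3A (AT2G31610) encodes another protein of the mRNA entry channel. It had 197, 206 and 190.0 CPM in VP16-02-003, against 248, 248 and 248 CPM in the background (log2 fold change -0.33, SE 0.10, adjusted p = 0.0155, edgeR). RPS5B (AT2G37270), a copy of the S5 gene, had 166, 164 and 163 CPM, against 201, 201 and 202 CPM (log2 fold change -0.29, SE 0.11, adjusted p = 0.0422, edgeR). RPS24A (AT3G04920), for a protein found only in eukaryotic and archaeal ribosomes, had 202, 201 and 202 CPM in VP16-02-003, against 239, 241 and 261 CPM in the background (log2 fold change -0.29, SE 0.077, adjusted p = 0.00713, edgeR). In all 3 genes the groups did not overlap and the line's libraries were nearly level with each other. RPL12A (AT2G37190), for a protein at the base of the stalk that recruits elongation factors, had 163, 172 and 165 CPM in VP16-02-003, against 186, 192 and 217 CPM in the background (log2 fold change -0.25, SE 0.091, adjusted p = 0.041, edgeR). Here replicate C of the background stood highest, and the groups did not overlap.

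The remaining 4 called genes changed less. RPS11A (AT3G48930) had 236, 249.7 and 242 CPM in VP16-02-003, against 266, 275 and 320.0 CPM in the background (log2 fold change -0.24, SE 0.072, adjusted p = 0.0153, edgeR). RPL4A (AT3G09630), for a protein that lines the exit tunnel, had 293, 303 and 294 CPM, against 337, 351 and 364 CPM (log2 fold change -0.24, SE 0.086, adjusted p = 0.0391, edgeR). Neither pair of groups overlapped. RPL5A and RPL23aA, with log2 fold changes of -0.21 and -0.17 and adjusted p-values of 0.014 and 0.0456 in the edgeR test, are described with their sister copies below. RPS11A overlaps a gene on the other strand, and whether the counting used strand is not given in the sources used here.

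Among the genes not called, RPS5A (AT3G11940), with a log2 fold change of 0.053, and RPS10B (AT5G41520), with 0.0074, were the 2 with a value above 0. RPL7B (AT2G01250) at -0.18 and RPL24B (AT3G53020) at -0.19 missed the threshold narrowly, with adjusted p-values of 0.0515 and 0.0506 by edgeR. RPP0B (AT3G09200), for the stalk base protein P0, and RPL28A (AT2G19730) were nearly level, at -0.013 and -0.0060.

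The rest of the large-subunit genes were not called, with log2 fold changes between -0.21 in RPL3A and -0.015 in RPL14B. They include RPL10A, known from the mutant sac52, RPL10aB (AT2G27530), for a protein of the L1 stalk and known as PIGGYBACK1, RPL9C, known as PIGGYBACK2, and RPL24B, known as STV1 for its part in translation reinitiation. RPL8A (AT2G18020), RPL13B (AT3G49010), RPL15A (AT4G16720), RPL18B (AT3G05590), RPL19A, RPL27aC (AT1G70600), RPL30B (AT1G77940) and RPL36aB also lay within this range. Of the small-subunit genes, RPSaA (AT1G72370), whose protein is the homologue of the laminin receptor, was at -0.16, RPS4A at -0.15, RPS8A at -0.093, RPS21B (AT3G53890) at -0.094 and RPS15aA at -0.064. RPS13A (AT4G00100), the gene of the mutant pointed first leaf2, and RPS2C, for a protein of the mRNA entry channel, were at -0.019 and -0.021.

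Calls in this comparison moved with single libraries and with the scaling. RPL23aB, RPS9C and RPS24A were called in all 14 alternative fits, RPS3A in 13 and RPL5A in 12. RPS5B lost its call in each of the 6 fits that left out 1 library, with adjusted p-values of 0.0656 to 0.102. Without VP16-02-003 A, B or C 5 genes were called, 11.4% of the set, against 11.1, 8.87 and 9.1% of all genes called lower. Without background C 5 were called as well, against 13.1% of all genes. Without background A 15 were, 34.1% of the set, against 11% of all genes. Scaling by library size alone called 6 genes, and TMM factors computed without cytosolic ribosomal protein genes called 19. Under library size alone the calls over all genes were 3638 higher and 2017 lower, in place of 2987 higher and 2707 lower.

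**Figure D3:**
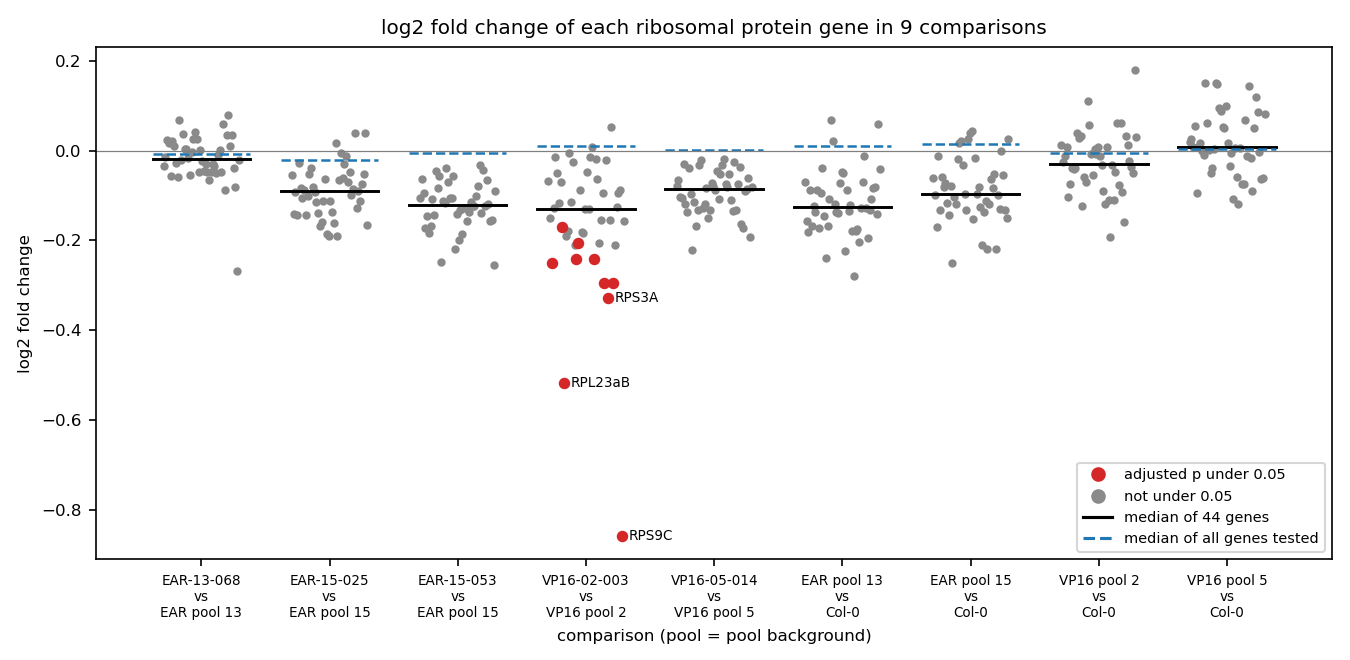
Log2 fold change (y axis) of each of the 44 genes in the 9 comparisons (x axis); red points passed an adjusted p of 0.05 by edgeR's quasi-likelihood test, grey points did not, the black bar is the median of the 44 genes and the dashed blue bar that of all genes tested. Red points appear only in VP16-02-003 against the VP16 pool 2 background, with RPS9C at -0.86 and RPL23aB at -0.52, while the medians of the set lie below those of all genes in 8 of the 9 comparisons.

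**Figure D4:**
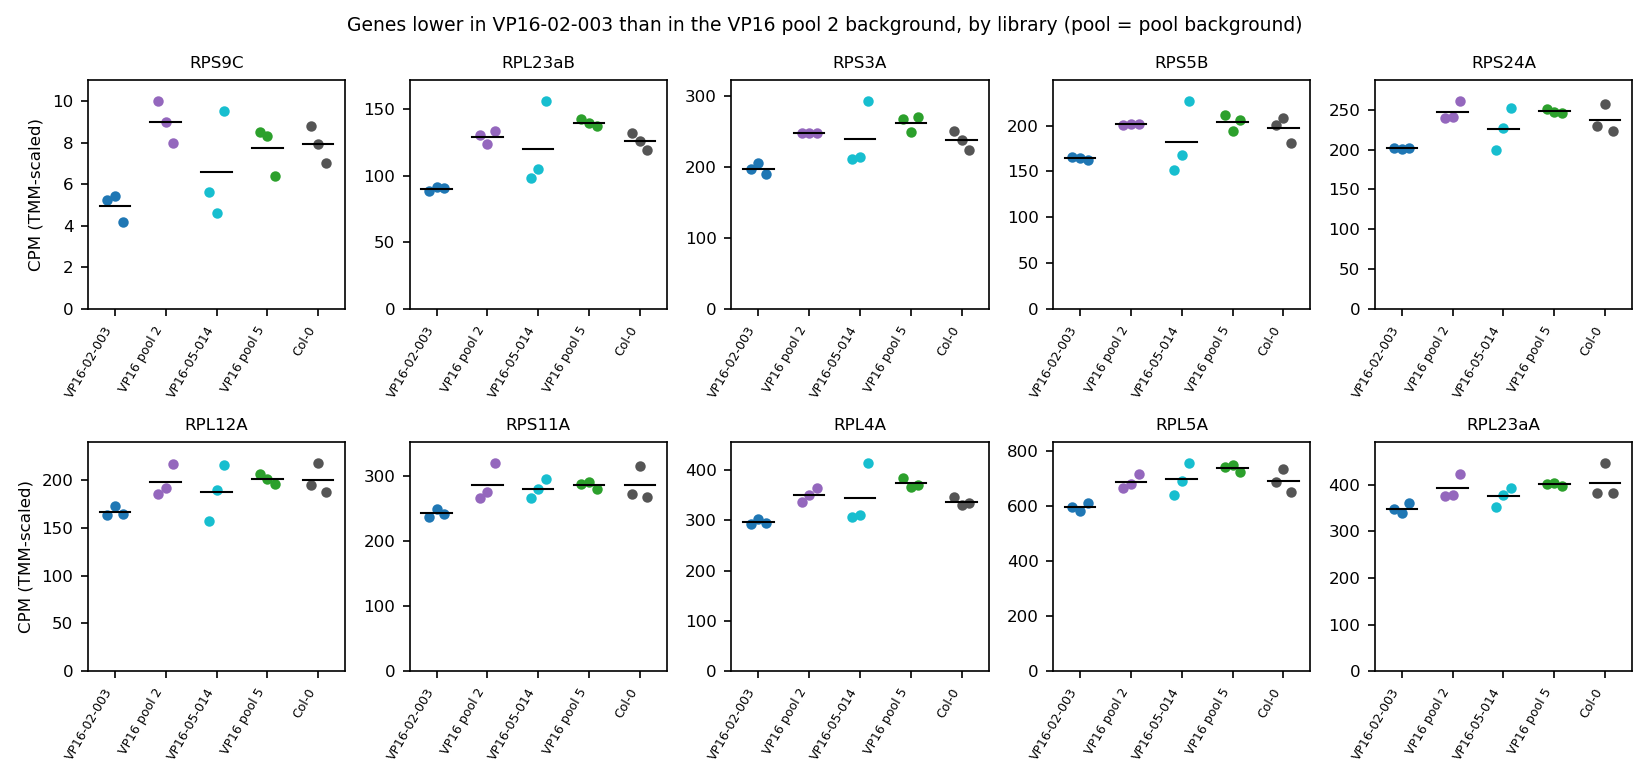
TMM-scaled CPM (y axis from 0) of the 10 genes called lower in VP16-02-003, for the 3 libraries (points in the order A, B, C, with the mean as a bar) of the VP16 lines, their pool backgrounds and Col-0. In VP16-02-003 the points sit close together and below the VP16 pool 2 background, whereas replicate C of VP16-05-014 is the highest of that line in every panel.

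Promoter sequences are shown for the copies of L23a and S9, which are among the pairs whose copies differed in their fold change. That of RPS24A, which was called in every alternative fit, is shown as well. Each runs 250 bases before to 50 bases after the annotated gene start in RefSeq's TAIR10.1 annotation, whose coordinates are used. Capitals mark the telo box (AAACCCTA) and site II elements (TGGGCC or TGGGCT), searched on both strands, so that TAGGGTTT, GGCCCA and AGCCCA are the same motifs read from the other strand. Each match on either strand was counted, also where 2 site II matches overlap.
RPL23aA promoter, chr2:16473899-16474198, plus strand: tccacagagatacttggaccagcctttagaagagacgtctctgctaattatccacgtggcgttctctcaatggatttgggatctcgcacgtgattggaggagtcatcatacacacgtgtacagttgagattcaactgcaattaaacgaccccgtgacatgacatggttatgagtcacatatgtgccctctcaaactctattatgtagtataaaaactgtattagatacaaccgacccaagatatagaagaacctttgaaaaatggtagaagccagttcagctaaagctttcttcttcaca
RPL23aB promoter, chr3:20499984-20500283, plus strand: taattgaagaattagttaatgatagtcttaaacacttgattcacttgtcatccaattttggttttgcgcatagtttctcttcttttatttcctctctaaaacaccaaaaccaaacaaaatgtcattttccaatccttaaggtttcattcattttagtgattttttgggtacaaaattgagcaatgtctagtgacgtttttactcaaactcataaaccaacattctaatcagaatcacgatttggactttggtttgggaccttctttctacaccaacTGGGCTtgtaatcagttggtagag
RPS9B promoter, chr5:4936380-4936679, minus strand: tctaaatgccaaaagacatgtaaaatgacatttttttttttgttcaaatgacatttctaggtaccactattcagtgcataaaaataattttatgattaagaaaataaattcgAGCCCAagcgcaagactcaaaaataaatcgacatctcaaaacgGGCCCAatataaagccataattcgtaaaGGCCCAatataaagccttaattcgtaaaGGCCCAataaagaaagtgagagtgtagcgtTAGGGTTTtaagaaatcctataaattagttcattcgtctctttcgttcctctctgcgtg
RPS9C promoter, chr5:15949660-15949959, plus strand: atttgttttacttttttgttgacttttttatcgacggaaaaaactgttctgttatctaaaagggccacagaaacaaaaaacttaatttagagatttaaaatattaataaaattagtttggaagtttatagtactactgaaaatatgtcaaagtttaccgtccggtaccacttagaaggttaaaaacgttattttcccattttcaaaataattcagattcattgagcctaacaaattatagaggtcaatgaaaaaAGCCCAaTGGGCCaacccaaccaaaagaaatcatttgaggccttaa
RPS24A promoter, chr3:1360587-1360886, plus strand: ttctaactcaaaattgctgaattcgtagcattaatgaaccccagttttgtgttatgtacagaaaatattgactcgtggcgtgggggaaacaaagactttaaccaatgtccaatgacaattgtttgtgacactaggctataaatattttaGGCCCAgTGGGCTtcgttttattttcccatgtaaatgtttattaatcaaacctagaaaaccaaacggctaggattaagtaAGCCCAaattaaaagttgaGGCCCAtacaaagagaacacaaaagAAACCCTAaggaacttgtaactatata

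The telo box is a short motif near the start of many plant genes for the translation machinery, and site II elements are bound by TCP transcription factors. RPL23aA holds neither motif in this window and RPL23aB a single site II element downstream of the start. RPS9B has 4 site II elements and 1 telo box before its start, while RPS9C has 2 site II elements just after its start and no telo box. RPS24A has 4 site II elements and 1 telo box. Of the S5 copies, which also differed in their fold change and are not shown, RPS5A has 2 telo boxes and 2 site II elements and RPS5B neither. Of all 44 genes 54.5% held a telo box and 77.3% a site II element, against 5.55% and 25.8% of the 19218 promoters of tested genes. Of the 171 other copies 46.2% held a telo box and 77.2% a site II element. Of the 10 genes called lower in VP16-02-003, 5 had a telo box and 8 a site II element, and of the 34 not called 19 and 26 did. A match is a run of letters and not a shown binding site.

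Proteins with both copies in the set let sister genes be set side by side. The 7 such pairs are L5, L7a, L23a, S5, S6, S9 and S18, and coding sequences within a pair are 80.4 to 92.7% identical. The longest run without a mismatch in an aligned pair is 44 bases, in L5. Read length is not given in the sources used here. Among all 44 genes 34 share no window of 50 exonic bases with any other annotated gene, and 42 share fewer than 5% of theirs. The largest share is that of RPL9C (AT1G33140), with 54.2% of its windows also present in AT1G33120, so its counts are uncertain. In the annotation 8 of the 44 genes overlap another gene, namely RPL9C, RPL15A, RPP0B, RPSaA, RPS2C, RPS11A, RPS13A and RPS18C. The share of a pair's reads held by 1 copy does not depend on library scaling, and is given as the mean ± SD of 3 libraries. A permutation test of 3 libraries against 3 cannot give a p below 0.1, which 5 of the 7 pairs reached in VP16-02-003 against the background (exact, two-sided, adjusted p = 0.14 over 7 pairs).

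In L23a the share of RPL23aA was higher in every library of VP16-02-003 than in the background. The gene lies at AT2G39460 (chr2:16474149-16476141, plus strand). It held 79.4 ± 0.565% of the pair's reads in VP16-02-003, against 75.2 ± 0.859% in the VP16 pool 2 background, and the 3 shares of the line were above those of every other library. RPL23aA had 336, 335 and 360.3 CPM in EAR-13-068, 353, 330.4 and 326 CPM in EAR-15-025, and 330.1, 331 and 349 CPM in EAR-15-053, against 359, 355 and 360.1 CPM in the EAR pool 13 background, and 376, 376 and 364 CPM in the EAR pool 15 background. RPL23aA values in the VP16 lines were 347, 339 and 360.3 CPM in VP16-02-003, and 353, 378 and 394 CPM in VP16-05-014, against 376, 378 and 423 CPM in the VP16 pool 2 background, and 401, 404 and 397 CPM in the VP16 pool 5 background, with 382, 446 and 382 CPM in Col-0. In VP16-02-003 the gene was lower than in its background in every library, with the gap at its narrowest between line replicate C and background replicate A. RPL23aB had 127, 118 and 125 CPM in EAR-13-068, 119, 104 and 94.9 CPM in EAR-15-025, and 103, 92.2 and 135 CPM in EAR-15-053, against 123, 119 and 111 CPM in the EAR pool 13 background, and 117, 115 and 109.9 CPM in the EAR pool 15 background. RPL23aB values in the VP16 lines were 88.6, 91.3 and 91.0 CPM in VP16-02-003, and 97.9, 105 and 156 CPM in VP16-05-014, against 130.2, 124 and 134 CPM in the VP16 pool 2 background, and 142, 139.5 and 137 CPM in the VP16 pool 5 background, with 132, 126 and 119 CPM in Col-0. RPL23aB spread more between groups than RPL23aA did, with group means of 90.3 CPM at the lowest and 139.6 CPM at the highest.

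S9 was carried almost wholly by RPS9B (AT5G15200). Its share was 99.1 ± 0.136% in VP16-02-003, against 98.4 ± 0.306% in the VP16 pool 2 background, without overlap. RPS9B had 473, 461 and 556 CPM in EAR-13-068, 533, 499.8 and 495 CPM in EAR-15-025, and 461, 459.6 and 504 CPM in EAR-15-053, against 514, 543 and 518 CPM in the EAR pool 13 background, and 529.9, 513 and 542 CPM in the EAR pool 15 background. RPS9B values in the VP16 lines were 510.5, 532 and 536 CPM in VP16-02-003, and 470.4, 549 and 575 CPM in VP16-05-014, against 520.2, 544 and 613 CPM in the VP16 pool 2 background, and 562, 533 and 568 CPM in the VP16 pool 5 background, with 559.6, 626 and 551 CPM in Col-0. RPS9B was not called in VP16-02-003 (log2 fold change -0.087, SE 0.079, adjusted p = 0.427, edgeR), and its groups overlapped. RPS9C had 7.80, 6.87 and 5.91 CPM in EAR-13-068, 8.30, 8.27 and 5.59 CPM in EAR-15-025, and 4.91, 5.43 and 7.66 CPM in EAR-15-053, against 9.28, 8.51 and 7.09 CPM in the EAR pool 13 background, and 7.13, 6.59 and 7.84 CPM in the EAR pool 15 background. RPS9C values in the VP16 lines were 5.27, 5.46 and 4.201 CPM in VP16-02-003, and 5.64, 4.62 and 9.53 CPM in VP16-05-014, against 10.03, 9.03 and 7.97 CPM in the VP16 pool 2 background, and 8.54, 8.31 and 6.42 CPM in the VP16 pool 5 background, with 8.82, 7.94 and 7.04 CPM in Col-0. RPS9C was below 5 CPM in VP16-02-003 C, VP16-05-014 B and EAR-15-053 A, and at its highest in the VP16 pool 2 background A.

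S5 had its larger part from RPS5A, known as a gene of dividing cells whose loss arrests embryos. It held 66.9 ± 0.628% of the reads in VP16-02-003, against 61.2 ± 3.13% in the VP16 pool 2 background. The shares of the line, 66.5 to 67.7%, were above the 58.7 to 64.7% of the background. RPS5A had 306, 297 and 358 CPM in EAR-13-068, 336, 322 and 289.6 CPM in EAR-15-025, and 295, 286 and 315 CPM in EAR-15-053, against 297, 318 and 323 CPM in the EAR pool 13 background, and 308, 317 and 298 CPM in the EAR pool 15 background. RPS5A values in the VP16 lines were 329, 344 and 325 CPM in VP16-02-003, and 309, 331 and 344 CPM in VP16-05-014, against 285, 305 and 371 CPM in the VP16 pool 2 background, and 319, 336 and 353 CPM in the VP16 pool 5 background, with 335, 399.6 and 339.9 CPM in Col-0. In RPS5A the 2 groups overlapped, since background replicate C exceeded every library of the line. RPS5B had 185, 181 and 204 CPM in EAR-13-068, 179, 173 and 153 CPM in EAR-15-025, and 161, 149 and 197 CPM in EAR-15-053, against 179.8, 186 and 173 CPM in the EAR pool 13 background, and 192, 176 and 184 CPM in the EAR pool 15 background. RPS5B values in the VP16 lines were 166, 164 and 163 CPM in VP16-02-003, and 152, 168 and 227 CPM in VP16-05-014, against 201, 201 and 202 CPM in the VP16 pool 2 background, and 212, 194 and 206 CPM in the VP16 pool 5 background, with 201, 208 and 182 CPM in Col-0. RPS5B was level across the VP16 pool 2 background and lower in all 3 VP16-02-003 libraries, while VP16-05-014 C had the highest value of the series.

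L5 binds the 5S ribosomal RNA. RPL5A (AT3G25520), known also as PIGGYBACK3 for its part in leaf polarity, held 56.5 ± 0.125% of the pair's reads in VP16-02-003, against 58.5 ± 0.329% in the VP16 pool 2 background, so in this pair the more abundant copy lost share. RPL5A had 628, 642 and 671 CPM in EAR-13-068, 627, 612 and 574 CPM in EAR-15-025, and 626, 599 and 657 CPM in EAR-15-053, against 644, 637 and 624 CPM in the EAR pool 13 background, and 691, 681 and 652 CPM in the EAR pool 15 background. RPL5A values in the VP16 lines were 596, 580.4 and 608 CPM in VP16-02-003, and 640.1, 690.2 and 754 CPM in VP16-05-014, against 666, 679 and 713 CPM in the VP16 pool 2 background, and 742, 748 and 720.3 CPM in the VP16 pool 5 background, with 686, 733 and 649 CPM in Col-0. RPL5A was called lower in VP16-02-003 (log2 fold change -0.21, SE 0.061, adjusted p = 0.014, edgeR) and the groups did not overlap. RPL5B had 455, 460.4 and 504 CPM in EAR-13-068, 458, 451 and 403 CPM in EAR-15-025, and 435, 416 and 466 CPM in EAR-15-053, against 451, 472 and 456 CPM in the EAR pool 13 background, and 486, 484 and 448 CPM in the EAR pool 15 background. RPL5B values in the VP16 lines were 459, 448 and 465 CPM in VP16-02-003, and 450.5, 465 and 536 CPM in VP16-05-014, against 466, 489 and 505 CPM in the VP16 pool 2 background, and 539.8, 551 and 519 CPM in the VP16 pool 5 background, with 505, 536 and 473 CPM in Col-0. RPL5B (AT5G39740) was not called there, at a log2 fold change of -0.089, although its groups did not overlap either.

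S6 is the small-subunit protein that S6 kinase phosphorylates downstream of TOR. RPS6A (AT4G31700) held 53.5 ± 0.768% of the pair's reads in VP16-02-003, against 55.0 ± 0.631% in the VP16 pool 2 background. RPS6A had 392, 392 and 438 CPM in EAR-13-068, 397, 376 and 349.9 CPM in EAR-15-025, and 379, 348 and 415 CPM in EAR-15-053, against 400.1, 420.3 and 392 CPM in the EAR pool 13 background, and 408, 393 and 393 CPM in the EAR pool 15 background. RPS6A values in the VP16 lines were 375, 375 and 389 CPM in VP16-02-003, and 365, 395 and 499 CPM in VP16-05-014, against 411, 433 and 474 CPM in the VP16 pool 2 background, and 485, 467 and 467 CPM in the VP16 pool 5 background, with 434, 459 and 414 CPM in Col-0. Neither copy was called, although in both genes all 3 libraries of VP16-02-003 lay below those of the background. RPS6B had 349, 343 and 368 CPM in EAR-13-068, 347, 351 and 315 CPM in EAR-15-025, and 345, 314 and 349.9 CPM in EAR-15-053, against 345, 356 and 333 CPM in the EAR pool 13 background, and 377.3, 369 and 349 CPM in the EAR pool 15 background. RPS6B values in the VP16 lines were 324, 336 and 328 CPM in VP16-02-003, and 330.0, 354 and 407 CPM in VP16-05-014, against 345, 355 and 378 CPM in the VP16 pool 2 background, and 392, 382 and 387 CPM in the VP16 pool 5 background, with 371, 379 and 345 CPM in Col-0. The log2 fold changes in VP16-02-003 were -0.21 for RPS6A and -0.13 for RPS6B (AT5G10360), with adjusted p-values of 0.0713 and 0.17 by edgeR.

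L7a is a large-subunit protein. RPL7aA (AT2G47610) held 44.02 ± 0.584% of the pair's reads in VP16-02-003 and 44.9 ± 1.46% in the VP16 pool 2 background, a difference smaller than the spread between replicates. RPL7aA had 343, 343 and 366 CPM in EAR-13-068, 363, 338 and 321 CPM in EAR-15-025, and 338, 309 and 354 CPM in EAR-15-053, against 349.8, 386 and 351 CPM in the EAR pool 13 background, and 419.7, 372 and 372 CPM in the EAR pool 15 background. RPL7aA values in the VP16 lines were 328, 334 and 339 CPM in VP16-02-003, and 349, 378 and 398 CPM in VP16-05-014, against 351, 368 and 418 CPM in the VP16 pool 2 background, and 399, 389 and 394 CPM in the VP16 pool 5 background, with 371, 415 and 357 CPM in Col-0. RPL7aA was at its highest in EAR pool 15 background A and VP16 pool 2 background C. RPL7aB had 433, 446 and 464 CPM in EAR-13-068, 426, 431 and 391 CPM in EAR-15-025, and 425, 419 and 447 CPM in EAR-15-053, against 437, 462 and 441 CPM in the EAR pool 13 background, and 484, 475 and 465 CPM in the EAR pool 15 background. RPL7aB values in the VP16 lines were 429, 418 and 425 CPM in VP16-02-003, and 434, 454 and 517 CPM in VP16-05-014, against 437, 475 and 481 CPM in the VP16 pool 2 background, and 497, 501 and 486 CPM in the VP16 pool 5 background, with 464, 492 and 430.5 CPM in Col-0. RPL7aB (AT3G62870) was the more abundant copy in every library.

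S18 lies in the head of the small subunit. RPS18A (AT1G22780), the gene of the mutant pointed first leaf, held 48.7 ± 1.25% of the pair's reads in VP16-02-003 and 49.6 ± 0.647% in the VP16 pool 2 background, with overlap. RPS18A had 151, 150.4 and 164 CPM in EAR-13-068, 168, 157 and 146 CPM in EAR-15-025, and 152, 146 and 156 CPM in EAR-15-053, against 161, 156 and 159 CPM in the EAR pool 13 background, and 164, 169.5 and 158 CPM in the EAR pool 15 background. RPS18A values in the VP16 lines were 141, 155 and 162 CPM in VP16-02-003, and 158, 171 and 184 CPM in VP16-05-014, against 162, 164 and 203 CPM in the VP16 pool 2 background, and 181, 181 and 181 CPM in the VP16 pool 5 background, with 176, 202 and 162 CPM in Col-0. Its 3 libraries of the VP16 pool 5 background were almost level. RPS18C had 164, 163 and 168 CPM in EAR-13-068, 179.6, 174 and 170.4 CPM in EAR-15-025, and 160.3, 163 and 167 CPM in EAR-15-053, against 172, 172 and 169 CPM in the EAR pool 13 background, and 177, 181 and 177 CPM in the EAR pool 15 background. RPS18C values in the VP16 lines were 156, 156 and 169.8 CPM in VP16-02-003, and 176, 186 and 167 CPM in VP16-05-014, against 163, 171 and 202 CPM in the VP16 pool 2 background, and 185, 188 and 176 CPM in the VP16 pool 5 background, with 178, 218 and 182 CPM in Col-0. RPS18C (AT4G09800) was highest in Col-0 B.

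**Figure D5:**
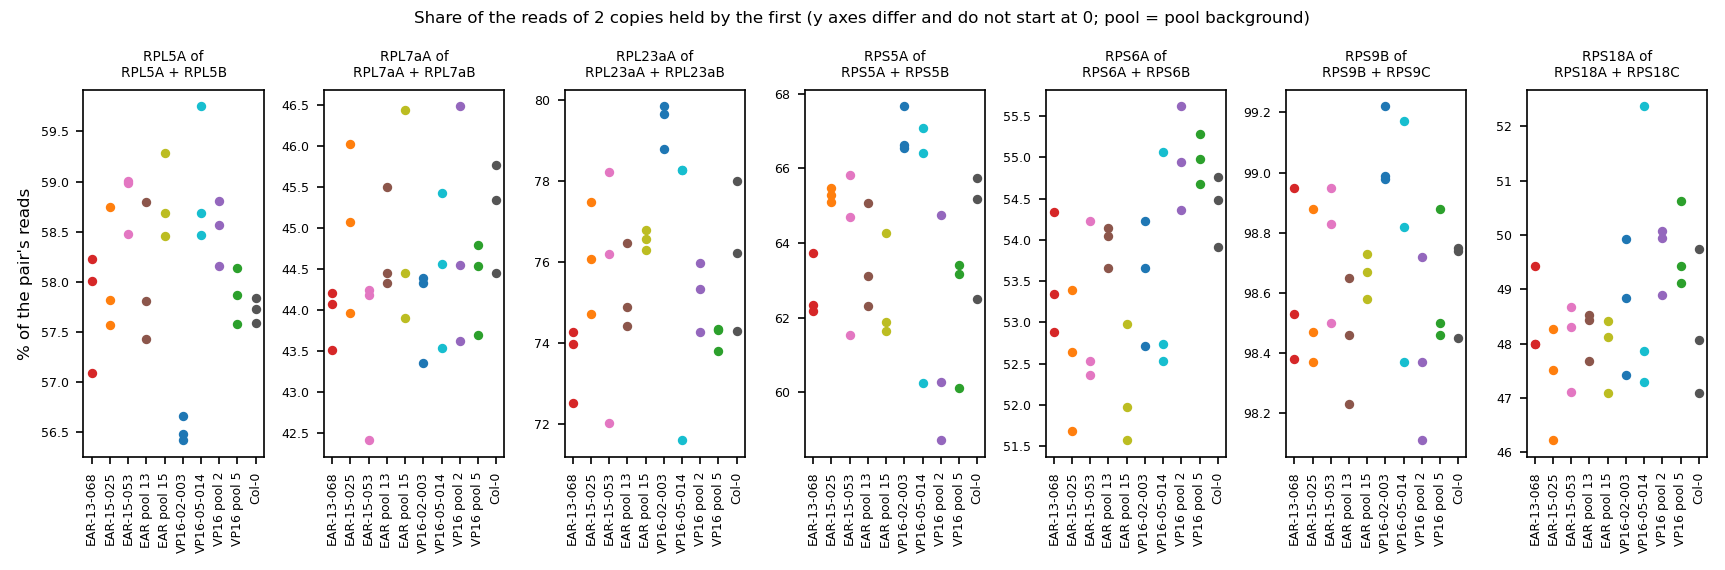
Share of a pair's reads (percent, y axes that differ between panels and do not start at 0) held by the first copy of each of the 7 proteins with 2 copies in the set, with 1 point per library and the 10 groups on the x axis. RPL23aA, RPS5A and RPS9B hold more of their pairs in VP16-02-003, at 79.4, 66.9 and 99.1%, than in the VP16 pool 2 background, at 75.2, 61.2 and 98.4%, and RPL5A less, at 56.5 and 58.5%.

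In VP16-05-014 against the VP16 pool 5 background all 44 genes had a negative log2 fold change, with a median of -0.086 against 0.0017 for all genes, but none was called. By edgeR 0 were called and 1 had an unadjusted p below 0.05, and by DESeq2 0 were called. Over all genes 0.634% were called higher and 0.864% lower, and 3871 of 19566 had an unadjusted p below 0.05. The groups were separated in 4 of the 44 genes, against 8.21% of all genes. The smallest p belonged to RPL5B and RPS6A. RPL5B had 450.5, 465 and 536 CPM in VP16-05-014, against 539.8, 551 and 519 CPM in the background (log2 fold change -0.15, SE 0.070, adjusted p = 0.237, edgeR). RPS6A had 365, 395 and 499 CPM, against 485, 467 and 467 CPM (log2 fold change -0.17, SE 0.087, adjusted p = 0.278, edgeR). In both genes replicates A and B of the line were below every background library. Replicate C lay within the range of the background in RPL5B and above all 3 of its libraries in RPS6A.

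Replicate C of VP16-05-014 decided this count. Without it 12 of the 44 genes were called lower by edgeR, against 2464 of all 19751 genes tested, or 12.5%. Without all 4 libraries that stood apart 14 of the 44 were, against 2645 of all 19701, or 13.4%. These shares of all genes were not matched in level to the set. Leaving out replicate A, replicate B or any library of the background called 0. Without replicate C the largest changes were RPL23aB with a log2 value of -0.47 (SE 0.11, adjusted p = 0.00453, edgeR) and RPL27aC at -0.43 (SE 0.12, adjusted p = 0.0135, edgeR). RPL23aB had 97.9, 105 and 156 CPM in VP16-05-014, against 142, 139.5 and 137 CPM in the background. RPL27aC had 236, 273 and 399 CPM, against 346, 315 and 359 CPM. In both genes replicate C exceeded every background library. RPL23aB, RPS5B, RPS3A, RPL4A and RPS24A were among the 12 and also among the genes called in VP16-02-003. Reads on plastid genes made up 0.564, 1.29 and 0.147% of the libraries VP16-05-014 A, B and C. With organelle genes left out of the tables before the fit 0 genes of the set were called.

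The effects of the VP16 lines were compared directly, as the VP16-02-003 change minus the VP16-05-014 change. By edgeR 0 genes of the set differed, 1 had an unadjusted p below 0.05, and by DESeq2 0 were called. Over all genes 0.823% were called with a higher and 1.01% with a lower value of this difference, and 2714 of 19566 had an unadjusted p below 0.05. RPS9C had the smallest p (log2 fold change -0.66, SE 0.31, adjusted p = 0.333, edgeR), followed by RPS11A (log2 fold change -0.21, SE 0.10, adjusted p = 0.365, edgeR). A call in VP16-02-003 and none in VP16-05-014 is therefore not a shown difference between the lines. The median difference of the 44 genes was -0.044 and turned to 0.035 under scaling by library size alone and to 0.0069 without VP16-05-014 C.

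The EAR lines gave no called gene against their pool backgrounds. In EAR-13-068 the median log2 fold change was -0.018 with 26 of 44 negative, against -0.0084 for all genes. By edgeR 0 genes were called and 0 had an unadjusted p below 0.05, and by DESeq2 0 were called, while the test called 0.118% of all genes higher and 0.118% lower. An unadjusted p below 0.05 was found by edgeR for 2152 of all 19566 genes. The groups were separated in 3 of the 44 genes, all lower, against 10.9% of all genes. The smallest p-values were those of RPS4A and RPS9C. RPS4A (AT2G17360) had 219, 213 and 228 CPM in EAR-13-068, against 229, 239 and 233 CPM in the EAR pool 13 background (log2 fold change -0.088, SE 0.061, adjusted p = 0.655, edgeR). RPS9C had 7.80, 6.87 and 5.91 CPM, against 9.28, 8.51 and 7.09 CPM (log2 fold change -0.27, SE 0.20, adjusted p = 0.686, edgeR). Without replicate C, a library that stood apart, the median was -0.055 with 38 of 44 negative, and 0 genes were called. Its sign turned without replicate A, to 4e-04, without replicate B, to 0.012, and without replicate B of the background, to 0.0042. The RPS4A groups were next to each other without overlap, and those of RPS9C overlapped.

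The lines of pool 15 were lower in most genes without a call. In EAR-15-025 the median was -0.090 with 41 of 44 negative, against -0.021 for all genes, and in EAR-15-053 it was -0.12 with 44 negative, against -0.0044. By edgeR 0 genes were called in EAR-15-025, with 8 at an unadjusted p under 0.05, and 0 in EAR-15-053, with 10. Over all 19566 genes 1729 and 1133 had such a p. DESeq2 called 0 in each. Over all genes 0.0409% were called higher and 0.0102% lower in EAR-15-025, and 0% higher and 0.00511% lower in EAR-15-053. Separated groups, all lower, were found for 13 of the 44 genes in EAR-15-025, against 9.53% of all genes, and for 20 of the 44 in EAR-15-053, against 6.82% of all genes. Both lines were set against the same 3 libraries. These values moved with single libraries, while 0 genes of the set were called by edgeR with any 1 library left out. In EAR-15-025 the 8 became 0 without replicate C, 3 without replicate B and 3 without replicate A of the background, and the median was -0.026 without replicate C. The number was 8 without replicate A and 7 without replicate B or C of the background. In EAR-15-053 the 10 became 5 without replicate A, 1 without replicate B and 15 without replicate C. Without replicates A, B and C of the background they became 2, 5 and 7. Without the 4 libraries that stood apart the median was -0.13 in EAR-15-025 and -0.16 in EAR-15-053, with all 44 negative in each. In that fit 15 and 24 genes had an unadjusted p under 0.05 and 0 were called in each. How many of all genes had such a p was not counted in the fits with libraries left out.

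In EAR-15-025 the smallest p-values were those of RPL7aB and RPS11A. RPL7aB had 426, 431 and 391 CPM in EAR-15-025, against 484, 475 and 465 CPM in the EAR pool 15 background (log2 fold change -0.19, SE 0.064, adjusted p = 0.33, edgeR). RPS11A had 246, 236 and 228 CPM, against 272, 274 and 264 CPM (log2 fold change -0.19, SE 0.072, adjusted p = 0.412, edgeR). Neither pair of groups overlapped, and replicate C of the line was lowest in both. In EAR-15-053 they were RPL28A and RPP0B. RPL28A had 258, 248 and 268 CPM in EAR-15-053, against 313, 302 and 304 CPM in the background (log2 fold change -0.25, SE 0.080, adjusted p = 0.69, edgeR). RPP0B had 616, 592 and 630.1 CPM, against 699.5, 672 and 718 CPM (log2 fold change -0.18, SE 0.062, adjusted p = 0.737, edgeR). Both genes were lower in every library of the line, with replicate C the nearest to the background.

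The pool backgrounds were set against Col-0. They share the 3 Col-0 libraries, of which B was high for most genes. In the EAR pool 13 background the median log2 fold change was -0.13 with 41 of 44 negative, against 0.011 for all genes. By edgeR 0 genes were called, with 13 at an unadjusted p under 0.05, where the test called 4.28% of all genes higher and 4.43% lower. Over all 19566 genes 4565 had such a p. DESeq2 called 2, RPL28A and RPL23aA, and 5.37% of all genes lower. Separated groups, all lower, were found for 19 of the 44 genes, against 16% of all genes. RPL28A had 275, 285 and 276 CPM in the EAR pool 13 background, against 317, 365 and 305 CPM in Col-0 (log2 fold change -0.24, SE 0.080, adjusted p = 0.0618, edgeR). RPS15aA had 232, 233 and 237 CPM, against 255, 338 and 258 CPM (log2 fold change -0.28, SE 0.10, adjusted p = 0.0747, edgeR). The groups did not overlap in either gene, and Col-0 B lay far above the other Col-0 libraries. Without Col-0 B 0 genes were called and 0 of the 44 had an unadjusted p under 0.05, in place of 13. This number was 20 without Col-0 C, and 8 and 5 without replicates A and C of the EAR pool 13 background. The number over all genes was not counted in these fits. Without Col-0 A 2 genes were called, RPS15aA and RPL9C, against 3.84% of all genes called lower. Without Col-0 C 1 was, RPL28A, against 3.47% of all genes.

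In the EAR pool 15 background the median was -0.096 with 37 of 44 negative, against 0.014 for all genes. By edgeR 0 genes were called, 3 had an unadjusted p below 0.05, and by DESeq2 0 were called, where the test called 3.32% of all genes higher and 3.29% lower. An unadjusted p below 0.05 was found by edgeR for 4422 of all 19566 genes. With the replicate letter as a block, used because the like-lettered libraries of these groups deviated together, the count was again 0. Separated groups, all lower, were found for 9 of the 44 genes, against 13.7% of all genes. Without the 4 libraries that stood apart, none of which is in these groups, 1 gene was called, RPL27aC, against 7.57% of all genes called lower. The 3 genes at an unadjusted p under 0.05 became 0 without Col-0 B, 9 without Col-0 A and 12 without Col-0 C, and 1 without replicate A or C of the pool background. Here too the number over all genes was not counted in the fits with a library left out. RPS5A had 308, 317 and 298 CPM in the EAR pool 15 background, against 335, 399.6 and 339.9 CPM in Col-0 (log2 fold change -0.22, SE 0.089, adjusted p = 0.144, edgeR). RPS21B had 156, 158 and 168 CPM, against 178, 217 and 167 CPM (log2 fold change -0.22, SE 0.095, adjusted p = 0.165, edgeR). The groups were separated in RPS5A and overlapped in RPS21B.

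The VP16 pool backgrounds gave no called gene against Col-0. Medians were -0.029 with 28 of 44 negative in VP16 pool 2 and 0.0077 with 18 negative in VP16 pool 5, against -0.0053 and 0.0036 for all genes. The sign of the first turned under scaling by library size alone, to 0.010, and that of the second in DESeq2, to -0.0028. By edgeR 0 genes were called in each, 0 had an unadjusted p below 0.05, and by DESeq2 0 were called. Over all genes 0.0153% were called higher and 0% lower in VP16 pool 2, and 0.00511% higher and 0% lower in VP16 pool 5. An unadjusted p below 0.05 was found by edgeR for 2173 and 1915 of all 19566 genes. Separated groups, all higher, were found for 1 gene in VP16 pool 2, RPL3A, and for 6 in VP16 pool 5, against 9.34% and 10.5% of all genes.

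For VP16 pool 2 the smallest p-values were those of RPS15aA and RPS5A. RPS15aA had 221, 237 and 286 CPM in the VP16 pool 2 background, against 255, 338 and 258 CPM in Col-0 (log2 fold change -0.19, SE 0.10, adjusted p = 0.466, edgeR). RPS5A had 285, 305 and 371 CPM, against 335, 399.6 and 339.9 CPM (log2 fold change -0.16, SE 0.089, adjusted p = 0.51, edgeR). Both genes overlapped between the groups. For VP16 pool 5 they were RPL4A and RPL3A (AT1G43170), whose protein reaches towards the peptidyl transferase centre. RPL4A had 384, 366 and 371 CPM in the VP16 pool 5 background, against 346, 330.4 and 334 CPM in Col-0 (log2 fold change 0.15, SE 0.086, adjusted p = 0.536, edgeR). RPL3A had 880.4, 794 and 862 CPM, against 786, 748 and 754 CPM (log2 fold change 0.15, SE 0.086, adjusted p = 0.536, edgeR). Every library of the pool background was above every Col-0 library in both.

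The genes that make up the rest of the ribosome and its production were read in the same fit. Of the 163 tested other copies of cytosolic ribosomal protein genes, 54 were lower and 0 higher in VP16-02-003, with a median log2 fold change of -0.17. The background for this list and those that follow is 13.8% of all genes called lower and 15.3% higher. It is not matched to the lists in level, and the lists were counted in this fit alone. The largest were AT5G59240, a copy of the S8 gene, at -2.02 (SE 0.37, adjusted p = 0.000507, edgeR) and AT1G23410, a ubiquitin extension gene for S27a, at -1.26 (SE 0.18, adjusted p = 5.41e-05, edgeR). Of 33 ribosome biogenesis factors 12 were lower and 0 higher, with a median of -0.34. AT3G12860, for a nucleolar protein of the NOP56 type, was at -0.81 and FIB2 (AT4G25630), a fibrillarin that methylates ribosomal RNA, at -0.68, with adjusted p-values of 0.011 and 0.0277 by edgeR. Of 21 genes for translation factors and RACK1, 7 were lower and 1 higher, with a median of -0.22, among them AT5G12110, for a subunit of elongation factor 1B, at -1.26 and RACK1C (AT3G18130) at -0.66. The 207 tested cytosolic ribosomal protein genes of both sets together differed by level. Split by mean level into 4 classes, 31 of 52 were lower in the lowest class, with a median of -0.35. Of the 17922 other genes up to the same upper limit 12.7% were lower. That class takes in all other tested genes below the limit and was not matched in level to the 52. In the second class 17 of 52 were lower, with a median of -0.19, against 24.4% of other genes, and in the next 11 of 51, at -0.12, against 26.4%. The highest class had 5 of 52 lower, at -0.099, against 26.8% of other genes, whose class had no upper limit. From the lowest to the highest class the count of lower ribosomal protein genes thus fell, while the share of other genes called lower grew. The 32 nuclear genes for plastid ribosomal proteins gave 0 calls in edgeR, with 2 at an unadjusted p under 0.05, and a median of -0.0048.

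Of the TOR pathway and ribosome regulators TCP20 (AT3G27010), a TCP factor described as binding site II elements of ribosomal protein genes, was higher in VP16-02-003, with a log2 value of 0.47 (SE 0.14, adjusted p = 0.0129, edgeR). It was also higher in VP16-05-014, at 0.60 (SE 0.14, adjusted p = 0.039, edgeR), and in the EAR pool 15 background against Col-0, at 0.56 (SE 0.14, adjusted p = 0.0164, edgeR). The other 5 regulators were not called in these comparisons. In the EAR lines the lists gave 0 calls by edgeR, with 0, 12 and 19 of the other copies at an unadjusted p under 0.05 in EAR-13-068, EAR-15-025 and EAR-15-053. Other lists had positive values in EAR-15-025. All 32 plastid ribosomal protein genes were positive there, with a median of 0.18 and 8 at an unadjusted p under 0.05. All 6 shoot markers were positive, with a median of 0.265 and 5 at such a p, and their summed level was 75850 to 84880 CPM in EAR-15-025, against 69740 to 71840 CPM in the EAR pool 15 background. In EAR-13-068 the 32 plastid genes were positive as well, with a median of 0.12 and 0 at such a p. Of the shoot markers 5 of 6 were, with a median of 0.11 and 1 at such a p, at a summed level of 70600 to 78230 CPM, against 69440 to 75530 CPM for EAR pool 13. For EAR-15-053 the median was 0.0043 for the plastid genes and 0.058 for the shoot markers, with 0 at such a p in either list, and the markers summed to 69750 to 74580 CPM. The part of these shifts in the values of the set was not tested. In VP16-05-014 0 of the other copies were called, with 6 at an unadjusted p under 0.05, and their median was -0.096.

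Nuclear genes for plastid ribosomal proteins passed the test in the EAR pool backgrounds against Col-0. Of the 32, 6 were lower in EAR pool 13 and 9 in EAR pool 15, with medians of -0.28 in each and all 32 negative. Over all genes 4.43% were called lower in EAR pool 13 and 3.29% in EAR pool 15. The shoot markers had negative values in 5 of 6 in each group, with medians of -0.16 and 0 calls by edgeR, and 0 of the 6 in EAR pool 13 and 2 in EAR pool 15 had an unadjusted p under 0.05. Their summed level was 69440 to 75530 CPM in EAR pool 13, 69740 to 71840 CPM in EAR pool 15 and 69490 to 80810 CPM in Col-0, and its part in these values was not tested. AT4G17560, for a plastid L19 protein, was at -0.45 in EAR pool 13 and -0.43 in EAR pool 15. RPL24 (AT5G54600), for the plastid L24 protein, was at -0.34 and -0.35 in these groups. Of the other copies of cytosolic ribosomal protein genes, AT4G31985 and AT4G25890 were lower in EAR pool 13, at -0.39 and -0.28, and AT4G00810 in EAR pool 15, at -0.31.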

How the data were processed

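RNA from shoots was measured, and the authors deposited raw counts for each gene in a table for each library. TopHat2 2.0.5, HTSeq and TAIR10 are named in the processing notes of the submitters. HTSeq's version, mode and use of strand are not given in the sources used here. Each table has 32679 entries for genes (VP16 included) and 5 that name none, which entered neither library sizes nor tests. Reads without a feature came to 0.765 to 1.94% and ambiguous reads to 1.32 to 1.48% of all counts in a table, entries without a gene included. Depth lay between 10076308 and 40780331 reads on genes (median 19024898), and with 3 libraries a group the precision rests on the pooled spread (common biological coefficient of variation 0.13).

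Counts were filtered with filterByExpr (minimum count 10), scaled by TMM and fitted in edgeR 4.0.16 (R 4.3.3, limma 3.58.1) over all 30 libraries with a mean per group. Contrasts were tested by the quasi-likelihood F test, with Benjamini-Hochberg adjustment over 19566 genes and a threshold of 0.05. SE is the absolute log2 fold change divided by the square root of F. The alternatives, among them DESeq2 1.42.0, a replicate block and each library left out in turn, are given at the end. The fit was also run on simulated counts, drawn independently with the same spread for every gene and no library standing apart. The changes put into them were larger than most of those of the set. That run therefore does not bear on small changes or on shifts that the genes of a library share. No 2 libraries of a group were identical, with a chi-square per degree of freedom of 3.43 to 56.3.

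The 44 genes and the other lists were chosen with earlier results of these data known, as were the 4 libraries said to stand apart. In each comparison the 6 called genes with the largest change, or else the 2 with the smallest p, were given in every sample, and so was each gene of the 7 pairs of copies. RPL27aC was added after its values were seen. The labels do not say that replicate letters pair the samples. Only for the EAR pool 15 background and Col-0 did like-lettered libraries deviate together at all 3 letters with correlations of 0.15 or more (0.279, 0.207 and 0.15). Whether these samples were paired is not known. Coordinates, exon lengths, promoters and coding sequences are from RefSeq's annotation of TAIR10.1 (31912 entries matched by locus), read with Python 3.11.15.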

Additional observations from a re-analysis of the deposited data

Results flagged for a closer look

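AT2G45710, one of the other copies and a small-subunit gene of a zinc-binding ribosomal protein family, was called in the difference between the VP16 line effects. It was the only gene called there among the 163 tested other copies, while 1.01% of all genes were called lower and 0.823% higher. The VP16-02-003 change minus the VP16-05-014 change was -0.76 on the log2 scale (SE 0.20; edgeR's quasi-likelihood test, Benjamini-Hochberg adjusted p = 0.0457). It had 13.6, 11.6 and 14.0 CPM in VP16-02-003, against 23.9, 22.6 and 25.8 CPM in the VP16 pool 2 background (log2 fold change -0.88, SE 0.14, adjusted p = 0.000135, edgeR). In VP16-05-014 it had 17.8, 21.54 and 29.7 CPM, against 26.9, 25.4 and 23.6 CPM in the VP16 pool 5 background (log2 fold change -0.13, SE 0.14, adjusted p = 0.631, edgeR). The groups were separate in the VP16-02-003 comparison and overlapped in that of VP16-05-014. There replicates A and B of the line were below every background library and replicate C was the highest library. The call was not examined with that replicate left out.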

How the results depend on the processing

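No direction of a called gene reversed in any of the alternatives run. In VP16-02-003, where 10 of the 44 genes were called, 6 were called with scaling by library size alone or with the compared groups fitted alone. TMM factors without cytosolic ribosomal protein genes gave 19, as did leaving out organelle genes, an alternative chosen after seeing the data, while 16.1 and 15.6% of all genes were called lower. Leaving out 1 library gave 5 to 15, or 11.4 to 34.1% of the set, beside 8.87 to 13.1% of all genes. With no filter on low counts or with the replicate block the count was 10, and without the 4 libraries standing apart or in DESeq2 15, beside 18.6 and 13.7% of all genes. In VP16-05-014, with 0 called, 14 of the 44 were called without the 4 libraries standing apart, beside 13.4% of all genes called lower. With 1 library left out 0 to 12 of the 44 were, beside 0 to 12.5% of all genes. In the EAR pool 13 background against Col-0, with 0 called, 2 were called without the 4 libraries standing apart, beside 8.58% of all genes called lower. DESeq2 called 2, beside 5.37%, and fits with 1 library left out 0 to 2, beside 2.25 to 3.84% of all genes. In the EAR pool 15 background 1 was called without those 4 libraries, beside 7.57% of all genes called lower. The cause of these shifts was not tested. Under the replicate block RPL23aA lost its call in VP16-02-003, at a log2 fold change of -0.17, and the count of called genes changed in no comparison. Counts of RPS9C, at 55 to 77 reads per VP16-02-003 library, limit the precision of its fold change.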
